A study of Mus musculus with 8 samples.

Results

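The 10 genes described here, *Evpl*, *Sprr1a*, *Efna3*, *Wnt7b*, *Gldn*, *Scn4b*, *Parm1*, *Fabp3*, *Spire2* and *Eif5a2*, were picked from earlier results of these same libraries because they had almost no reads in control liver and were read in every Ctcf-deleted liver. They are 10 of 52636 genes listed in the deposited files and 10 of the 15562 with enough reads for a test. Because the genes were chosen by the measured difference, their levels are given as a description, with no p-value. RNA from whole liver of C57BL/6 mice aged 8 weeks was sequenced in 8 libraries. Both groups carried 2 floxed alleles of *Ctcf* (CTCF fl/fl). The 4 control libraries (WT) lacked the Albcre transgene and the 4 conditional knockout libraries (cKO) carried it. In such a transgene the albumin promoter drives Cre recombinase in hepatocytes, and cells where that promoter is silent keep the floxed gene. Since no group had the transgene on unfloxed *Ctcf*, effects of Cre itself and of the deletion cannot be told apart.

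CTCF, a zinc finger protein, sits at insulators and, with cohesin, holds the bases of chromatin loops, which limits which enhancers reach which promoters. The liver parenchyma is made mostly of hepatocytes, with bile duct cells, stellate cells, macrophages, endothelium and lymphocytes among them. The 10 genes are best known from other tissues: stratified epithelium for *Evpl* and *Sprr1a*, the nervous system for *Gldn*, *Scn4b* and *Efna3*, heart for *Fabp3*, and developing organs for *Wnt7b*.

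Total counts per library were between 43899481 and 50376750 in WT and between 50258178 and 57279620 in cKO. Levels are given as CPM, that is counts per 1000000 counts of a library after scaling with TMM factors, and 3 counts correspond to between 0.0511 and 0.0708 CPM. *Ctcf* itself was between 16.02 and 16.9 CPM in WT and between 10.9 and 13.1 CPM in cKO, with no overlap. The count is of the whole transcript, and which exons are floxed is not given. The log2 change was -0.44 ± 0.08 (SE, adjusted p = 0.00177 by edgeR's quasi-likelihood test). In bulk RNA, fewer cells of a type and less RNA per cell cannot be told apart.

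Promoter sequence was found in RefSeq (GRCm38.p6, the same assembly as mm10) for 8 of the 10 genes, not for *Evpl* and *Wnt7b*. Each window runs from 250 bases before to 50 bases after a start site. *Efna3* has a pair of windows, which makes 9 in all. The 250 bases before the start are shown for *Sprr1a* (chr3:92485882-92486131, minus strand), *Gldn* (chr9:54286236-54286485, plus strand) and *Spire2* (chr8:123332463-123332712, plus strand), because they are the 3 genes with the highest ratio of cKO to WT counts and because their base composition spans the range of the members. Capitals mark a TATA box (TATAAA) or a GC box (GGGCGG, or CCGCCC on the other strand).
Sprr1a: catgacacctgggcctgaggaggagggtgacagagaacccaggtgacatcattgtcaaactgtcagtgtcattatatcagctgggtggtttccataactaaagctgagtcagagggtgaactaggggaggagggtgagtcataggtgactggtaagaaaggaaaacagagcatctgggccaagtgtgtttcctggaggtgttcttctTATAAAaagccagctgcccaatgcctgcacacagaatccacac
Gldn: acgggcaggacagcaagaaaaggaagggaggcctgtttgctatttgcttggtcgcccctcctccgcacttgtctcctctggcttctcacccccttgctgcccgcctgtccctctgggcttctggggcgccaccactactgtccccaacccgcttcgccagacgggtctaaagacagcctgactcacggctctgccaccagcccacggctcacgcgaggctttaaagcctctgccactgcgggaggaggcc
Spire2: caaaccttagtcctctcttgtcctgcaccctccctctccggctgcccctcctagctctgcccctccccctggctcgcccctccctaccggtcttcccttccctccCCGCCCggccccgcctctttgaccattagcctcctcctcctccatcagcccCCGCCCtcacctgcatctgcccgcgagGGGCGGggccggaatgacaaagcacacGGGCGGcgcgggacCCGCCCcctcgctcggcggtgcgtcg

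The *Sprr1a* promoter stood apart in composition. It was 48.7% G+C and held no CpG dinucleotide, and it carried the single TATA box of the 9 windows, at positions -43 to -38 from the start. The other 8 windows were between 64% and 72.3% G+C, against a median of 52.7% over 32851 windows of 27025 genes. All 8 lay above the median CpG content of those windows, with an observed over expected ratio between 0.493 (*Parm1*) and 1.01 (*Efna3*) against 0.384. *Spire2* held 7 GC boxes in its whole window, 5 of them in the stretch shown, and *Gldn* held 1, after the start. A GC box was present in 5 of the 9 windows and in 35.7% of all windows, and a TATA box in 13.6% of all windows. CCCTC, the short core of the motif that CTCF binds, was in 8 of the 9 windows and in 66.0% of all. The longer CTCF core motif was in none of the 9 and in 0.557% of all windows. Both strands were searched, and a match describes letters in a window only.

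The genes of the epithelial envelope behaved as follows. *Evpl* (chr11:116220559-116238165) encodes envoplakin, a plakin that ties the keratin cytoskeleton to the envelope of stratified epithelium. It had 28, 11, 14 and 12 counts in WT replicates 1 to 4 and 236, 230, 247 and 311 counts in cKO replicates 1 to 4. It was thus not silent in control liver: each WT library read it, at a mean of 0.358 ± 0.144 CPM (SD, n = 4), while the cKO mean was 4.70 ± 0.41 CPM. The ratio of pooled CPM (summed counts over summed library size) was 12.9, with a 95% interval of 10.03 to 16.8. That interval, as all such intervals here, covers counting error only. Its 4 cKO libraries were the closest to each other among the 10 genes, with a highest value 1.20 times the lowest.

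*Sprr1a* (chr3:92483954-92485881) encodes a small proline-rich protein that is crosslinked into the cornified envelope. WT replicate 1 had 3 counts and the other 3 WT libraries had 0, whereas the cKO libraries had 33, 22, 36 and 19. All WT reads of this gene thus came from 1 library, and the lowest cKO library had 5.29 times the CPM of the highest WT library. The ratio of pooled CPM was 30.003, with a wide 95% interval of 10.001 to 148 that follows from the 3 WT counts. Without WT replicate 1 the WT count was 0, and cKO was at least 21.7-fold higher, taking 3 counts over the remaining 3 libraries as the limit. Among the cKO libraries, replicates 1 and 3 were the high pair and replicates 2 and 4 the low pair, with a spread from 0.324 to 0.665 CPM that was larger than counting error (chi-square per degree of freedom 2.97).

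Of the ligands, *Efna3* (chr3:89313899-89322939) encodes ephrin-A3, a membrane-anchored ligand of Eph receptor kinases. It had 1, 2, 6 and 0 counts in WT and 32, 15, 35 and 29 in cKO. The counts did not overlap, and the gap between the highest WT and the lowest cKO library was 9 counts, the smallest of the 10 genes. The ratio of pooled CPM was 10.1 (95% interval 5.13 to 22.6). Without WT replicate 3, which held 6 of the 9 WT counts, the fitted log2 difference went from 3.27 to 4.37. The authors' length-scaled TPM differed for this gene. WT replicate 3 was at 0.43 TPM, above all 4 cKO libraries (0.32, 0.15, 0.42 and 0.28), because its 6 counts were assigned an effective length of 327 bases, against 1873 to 2190 in cKO. On the TPM scale the groups of *Efna3* therefore overlapped. *Efna3* also overlaps *Gm34014* and *Gm15998* on the genome. Since the strand setting of the counting is not given, reads from the overlap cannot be told apart by strand.

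*Wnt7b* (chr15:85535437-85581821) encodes a secreted Wnt ligand that signals through Frizzled receptors together with the co-receptors RECK and ADGRA2. It had 3, 0, 4 and 10 counts in WT and 42, 38, 25 and 46 in cKO. WT replicate 4 was the high WT library and cKO replicate 3 the low cKO library, and these were 1.97-fold apart in CPM, the narrowest separation of the 10 genes. The ratio of pooled CPM was 7.27 (95% interval 4.39 to 12.8), the smallest of the 10. Without WT replicate 4 the fitted log2 difference went from 2.82 to 3.68.

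Of the genes of nerve and excitable membranes, *Gldn* (chr9:54286486-54341777) encodes gliomedin, an olfactomedin-domain protein of Schwann cells that clusters sodium channels at nodes of Ranvier. It had 0, 0, 0 and 2 counts in WT and 214, 198, 166 and 267 in cKO. This was the widest separation of the 10 genes: the lowest cKO library had 65.5 times the CPM of the only WT library with a read. The ratio of pooled CPM was 346, with a 95% interval of 95.4 to 2859. Without WT replicate 4 the WT count was 0, and cKO was at least 175-fold higher by the same limit of 3 counts. The 4 cKO libraries varied more than counting error allows (chi-square per degree of freedom 5.56), from 3.07 to 4.55 CPM, the lowest being replicate 3. After thinning of every library to the smallest total, 2 WT and 718 cKO counts were left.

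*Scn4b* (chr9:45138624-45154155) encodes the beta-4 subunit that modulates voltage-gated sodium channels. It had 6, 2, 1 and 5 counts in WT and 49, 39, 54 and 66 in cKO. Every WT library held at least 1 read, and the ratio of pooled CPM was 12.2 (95% interval 7.08 to 22.6). *Parm1* (chr5:91517700-91624011), which encodes a mucin-like membrane glycoprotein, had 5, 4, 2 and 0 counts in WT and 52, 46, 61 and 75 in cKO. Its ratio was 17.4 (95% interval 9.55 to 35.4), and its groups were 8.65-fold apart at their nearest libraries.

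Of the intracellular proteins, *Fabp3* (chr4:130308738-130315463) encodes the fatty acid binding protein of heart and muscle. Its counts, rounded, were 3, 1, 1 and 2 in WT and 36, 35, 27 and 28 in cKO, with a ratio of 14.7 (95% interval 6.94 to 37.4). Some of its values were not whole before rounding, as happens where reads are divided between genes, and 81 bases at its end are shared with the span of *Zcchc17*, whose own level was 13.4 CPM in WT and 12.8 CPM in cKO. *Spire2* (chr8:123332713-123369518) encodes an actin nucleator that works with formins and myosin V in vesicle transport. It had 2, 1, 2 and 1 counts in WT and 36, 35, 48 and 43 in cKO. Its WT libraries were the most even of the 10 genes in counts, its ratio was 22.1 (95% interval 9.93 to 61.1), and its nearest libraries were 14.6-fold apart. *Eif5a2* (chr3:28781032-28798846) encodes a close relative of the translation factor eIF5A, which carries the modified amino acid hypusine. It had 8, 2, 5 and 3 counts in WT and 50, 52, 67 and 81 in cKO, with a ratio of 11.4 (95% interval 7.04 to 19.5).

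**Figure D1:**
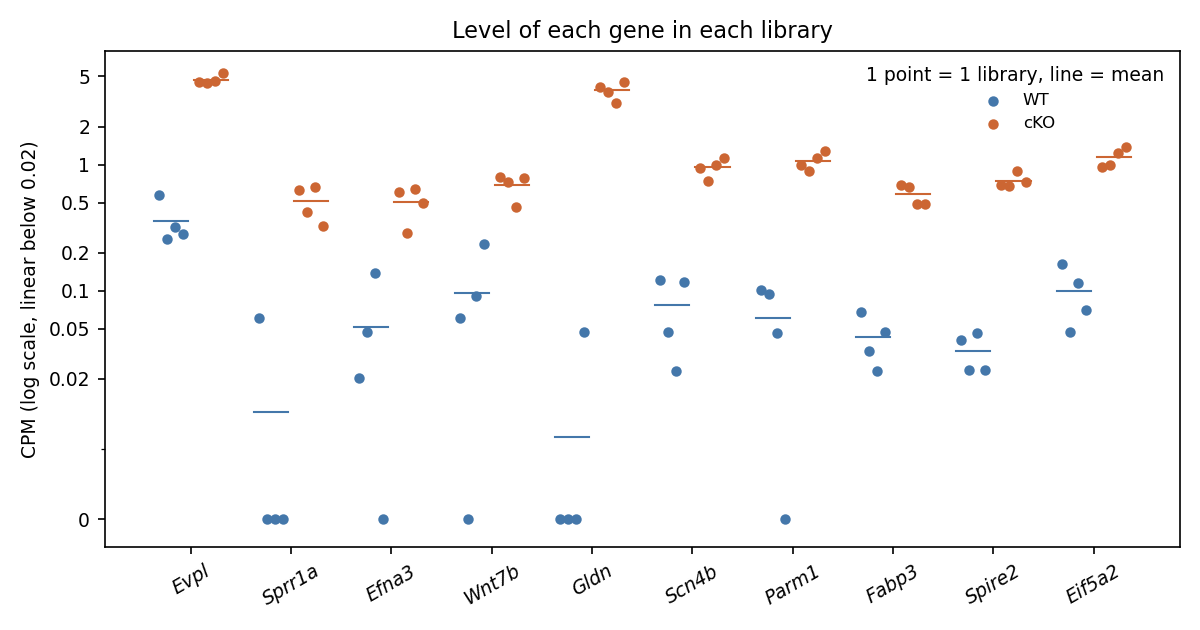
CPM of each of the 10 genes (vertical axis, logarithmic above 0.02 CPM and linear below) in each library, with WT in blue and cKO in orange. Points are single libraries and lines are group means. Every cKO point lies above every WT point of the same gene, with *Gldn* the widest apart and *Wnt7b* and *Efna3* the nearest.

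By construction of the set, the 10 genes fall on the same side. All 10 passed the filter on low counts, which asks for its level in 4 libraries, and 9 of them passed only through the cKO libraries. *Evpl* alone reached that level in all 4 WT libraries. All 10 had every cKO library above every WT library, beside 15% of all tested genes. As the choice of the genes fixed this count, it carries no further information. Fitted log2 differences ran from 2.82 (*Wnt7b*) to 8.14 (*Gldn*) with a median of 3.75, where the median of all tested genes was -0.01. Together the 10 genes held 152 counts in the 4 WT libraries and 3221 in the 4 cKO libraries, and 9 of 40 WT values were 0. Their summed level was 1.21, 0.552, 0.802 and 0.820 CPM in WT replicates 1 to 4 and 14.9, 13.6, 14.1 and 16.5 CPM in cKO replicates 1 to 4.

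The libraries did not contribute evenly. WT replicate 1, the deepest WT library, had the highest WT level of 6 of the 10 genes, and cKO replicate 4, the deepest of all, had the highest cKO level of 5. cKO replicate 2 had the lowest cKO level of 5 genes. Over the cKO libraries, 7 of the 10 genes had a chi-square per degree of freedom under 2, and *Gldn*, *Sprr1a* and *Efna3* were above it. *Gldn* was highest in replicate 4, where *Sprr1a* was lowest, so the cKO libraries ranked the genes differently.

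Even in cKO the 10 genes stayed low. Per length, on the authors' TPM scale, the cKO level was highest for *Fabp3* (1.07 ± 0.17 TPM, SD, n = 4), followed by *Gldn* (1.03 ± 0.17), *Sprr1a* (0.970 ± 0.321) and *Evpl* (0.900 ± 0.099), and neighbours in this order differed by less than their SD. *Spire2* (0.425 ± 0.069 TPM) came next, with no library as high as the lowest of *Evpl*. Then came *Efna3* (0.293 ± 0.112), *Eif5a2* (0.283 ± 0.057), *Parm1* (0.263 ± 0.048), *Wnt7b* (0.258 ± 0.054) and *Scn4b* (0.235 ± 0.042), of which no neighbours differed beyond their SD. Among all tested genes these cKO levels stood between the percentiles 7.54 and 26.2.

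**Figure D2:**
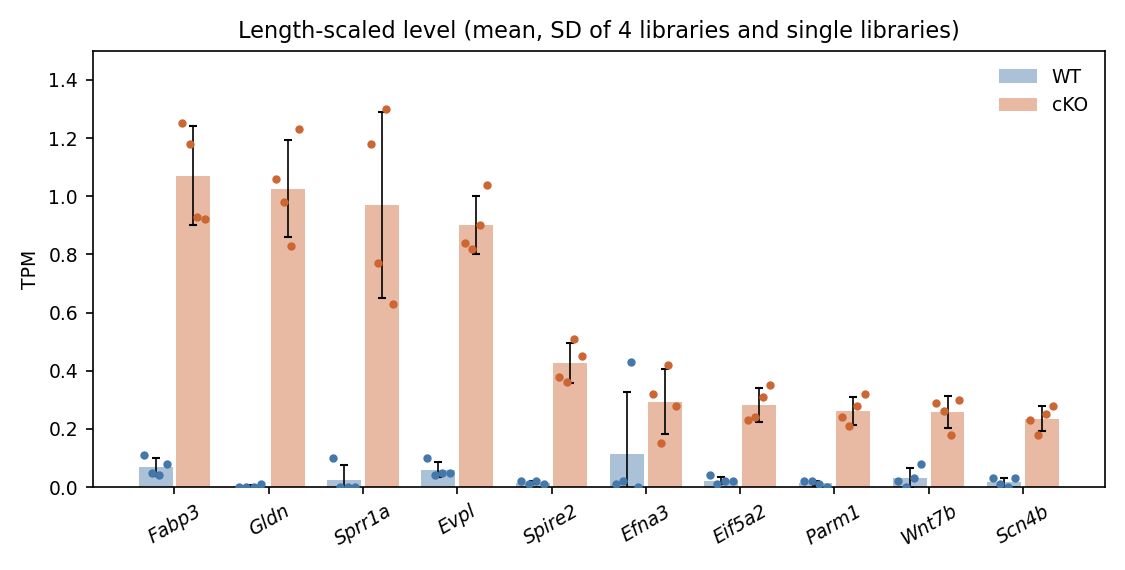
Length-scaled level (TPM, vertical axis) of the 10 genes in WT (blue) and cKO (orange), ordered by the cKO mean. Bars are means of 4 libraries, error bars are SD and points are single libraries. The cKO means run from 0.235 (*Scn4b*) to 1.07 TPM (*Fabp3*), and the WT point of *Efna3* at 0.43 TPM is replicate 3, with its short effective length.

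Other genes shared this pattern. The highest WT mean among the 10 was that of *Evpl* (0.358 CPM), the lowest cKO library was replicate 2 of *Efna3* (0.288 CPM), and the lowest ratio of group means was that of *Wnt7b* (7.18). In all, 1317 tested genes had a WT mean no higher than *Evpl*, and the edgeR fit called 239 of them higher (18.1%). Of the 1317, 314 had every cKO library at or above 0.288 CPM, and 197 of those had groups that did not overlap with cKO higher. A ratio at least as large as that of *Wnt7b* was reached by 19, the 10 genes and others that include *6030419C18Rik*, *Hao2*, *Kiss1*, *Mmp12*, *Ephb2*, *Cldn4*, *Dusp8* and *Sybu*. Just outside these bounds were *Gm3776*, with a WT mean of 0.522 and a cKO mean of 3.77 CPM, *Sctr*, with a lowest cKO library of 0.259 CPM, and *Phgdh*, with a ratio of 7.12. Values on the 2 sides of these bounds were close.

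**Figure D3:**
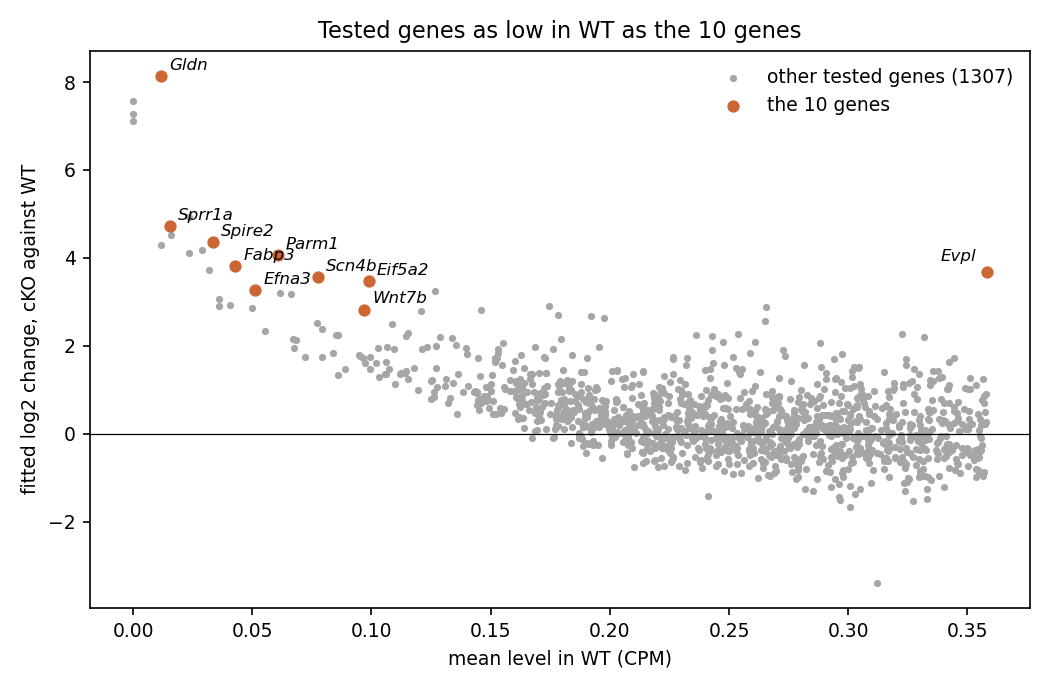
Fitted log2 difference of cKO against WT (vertical axis) against mean WT level in CPM (horizontal axis) for the 1317 tested genes with a WT mean no higher than *Evpl*, the 10 genes in orange. Genes at the far left pass the filter on low counts only where their cKO level is high, so the empty lower left is set by the filter. *Gldn* lies highest, at 8.14.

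Among 799 candidates equally low in WT, the genes whose profile over the 8 libraries was most like the mean profile of the 10 included *Mogat2* (Pearson r = 0.994), *Krt20* (0.984), *Zcwpw2* (0.979) and *Kiss1* (0.976). These correlations describe 8 points in 2 groups that share library and depth. The 10 genes were chosen by their difference between these 2 groups. A high r, also among the 10 genes themselves, therefore follows from that choice and carries no further information. *Mogat2*, which encodes an acyltransferase of triglyceride synthesis, went from 0.297 ± 0.024 CPM in WT to 1.05 ± 0.03 in cKO. *Krt20*, a keratin of gut epithelium, had 0 counts in all 4 WT libraries and so passed the filter on low counts only through cKO. With 3 counts over the 4 WT libraries as the limit, its cKO level was at least 23.2-fold higher. Of the 10 genes themselves, *Evpl* (r = 0.995) and *Spire2* (0.995) followed the mean of the other 9 most closely and *Wnt7b* (0.872) least.

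The neighbours of the 10 genes were not used in choosing them. Within 250 kb, 100 other genes were tested, of which 24 rose (24%), 17 fell (17%) and 59 did not pass the test, beside 15.2% higher and 14.9% lower among all tested genes. Their median log2 change was 0.04. With libraries scaled by their totals alone, 32 were called higher and 9 lower. All 17 that fell had every cKO library below every WT library, and 22 of the 24 that rose had no overlap either. These counts rest on the same values as the calls and add nothing to them. The largest rise was 1.93 (*Tmprss4*) on the log2 scale. The 10 genes themselves differed by at least 2.82, but they were chosen by their difference. Of all 15562 tested genes, 36 were called higher by at least that much, so the neighbours are not compared with the 10 genes. At least 1 neighbour rose at 8 of the 10 genes, the exceptions being *Sprr1a* and *Wnt7b*, and at least 1 fell at 4.

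The neighbourhoods differed. At *Eif5a2* all 3 tested neighbours rose: *Tnik*, a kinase gene, *Slc2a2*, the glucose transporter of hepatocytes, and *Rpl22l1*, a ribosomal protein gene 6.7 kb away. *Rpl22l1* went from 22.5 to 39.1 CPM (log2 change 0.80, adjusted p = 2.00e-04 by edgeR, above every WT library in 4 of 4 cKO libraries). *Slc2a2* went from 95.3 to 144 CPM (0.60, adjusted p = 0.0226), and that call was lost with no filter on low counts and without WT replicate 2, WT replicate 3 or cKO replicate 3. At *Parm1* both tested neighbours within the window rose, among them *Btc*, which encodes the growth factor betacellulin, from 0.499 to 1.13 CPM (1.18, adjusted p = 0.00235, 4 of 4 above). At *Gldn* 3 of 4 rose, among them *Tnfaip8l3*, a lipid transfer protein gene 218 kb away, from 0.0954 to 0.333 CPM (1.77, adjusted p = 0.00493, 4 of 4 above). With at most 0.118 CPM in WT, *Tnfaip8l3* passed the filter on low counts only through cKO and could not have been called lower. *Dmxl2*, 23.4 kb from *Gldn*, was at 22.5 and 23.3 CPM and did not pass the test.

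At *Scn4b* 5 of 11 tested neighbours rose and 1 fell. The nearest on one side was *Tmprss4*, a membrane serine protease gene 18.6 kb away, which went from 0.121 to 0.459 CPM (log2 change 1.93, adjusted p = 0.00612 by edgeR, 4 of 4 above). At most 0.183 CPM in WT, *Tmprss4* also passed the filter on low counts only through cKO. The nearest on the other side was *Jaml*, a junctional adhesion gene (0.629 and 0.739 CPM, adjusted p = 0.622). *Cd3d* and *Cd3e*, genes of the T cell receptor complex, were among the 5 and are named here after their values were seen. The call of *Cd3e* (adjusted p = 0.0388) was lost when any 1 of 7 of the 8 libraries was left out (all but WT replicate 2), and that of *Cd3d* by limma on log2 TPM. At *Fabp3* 2 of 6 rose. *Serinc2*, 29.5 kb away, went from 26.9 to 32.2 CPM (0.26, adjusted p = 0.0263, 3 of 4 above), a call lost when any 1 of 5 libraries was left out (WT replicates 2 and 3, cKO replicates 1, 3 and 4). *Zcchc17*, which touches the end of *Fabp3*, did not pass the test (-0.06, adjusted p = 0.659), nor did *Snrnp40* (0.04, adjusted p = 0.810).

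At *Efna3* 11 of 29 tested neighbours fell and 2 rose. Of the 11, *Mtx1*, *Flad1* and *Pygo2*, named after their values were seen, lost their call when the libraries were scaled by their totals alone. The overlapping transcript *Gm15998* fell from 0.805 to 0.198 CPM (log2 change -2.01, adjusted p = 0.0180 by edgeR, 4 of 4 below), a call lost without cKO replicate 2. The other ephrin-A genes of the cluster, *Efna1* (41.2 ± 10.4 and 24.6 ± 11.2 CPM, adjusted p = 0.149) and *Efna4* (0.144 ± 0.087 and 0.284 ± 0.129 CPM, adjusted p = 0.186), did not pass the test. *Efna1* did pass as lower by limma-voom on all 8 libraries and by edgeR without cKO replicate 1. At *Spire2* 3 of 20 rose and 3 fell. *Tcf25*, 1.3 kb away, fell from 213 to 176 CPM (-0.27, adjusted p = 0.0116, 4 of 4 below), a call lost when the libraries were scaled by their totals alone and by limma on log2 TPM, and *Fanca*, 14.1 kb away on the other side, did not pass the test (adjusted p = 0.818).

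At *Evpl* 4 of 18 rose and 2 fell, but the nearest on each side, *Cdk3-ps* (0.36, adjusted p = 0.476) and *Srp68* (-0.08, adjusted p = 0.358), did not pass the test. *Sprr1a* lies in a cluster of epidermal genes: of 31 genes listed within 250 kb, 22 of them protein coding, 2 had enough reads for a test, *Gm9774* (-0.15, adjusted p = 0.478) and *Gm4202* (0.57, adjusted p = 0.168). At *Wnt7b* 5 neighbours were tested and none was called. Those nearest were *Atxn10* (79.3 and 90.9 CPM, 0.20, adjusted p = 0.130) and *Ppara*, the nuclear receptor of fatty acid oxidation (33.1 and 38.2 CPM, 0.21, adjusted p = 0.134), and both passed the test as higher when the libraries were scaled by their totals alone. Of the 10 genes, *Sprr1a* and *Efna3* are 3.16 Mb apart on chromosome 3 and *Gldn* and *Scn4b* 9.13 Mb apart on chromosome 9. No others on the same chromosome are nearer than 60.5 Mb.

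**Figure D4:**
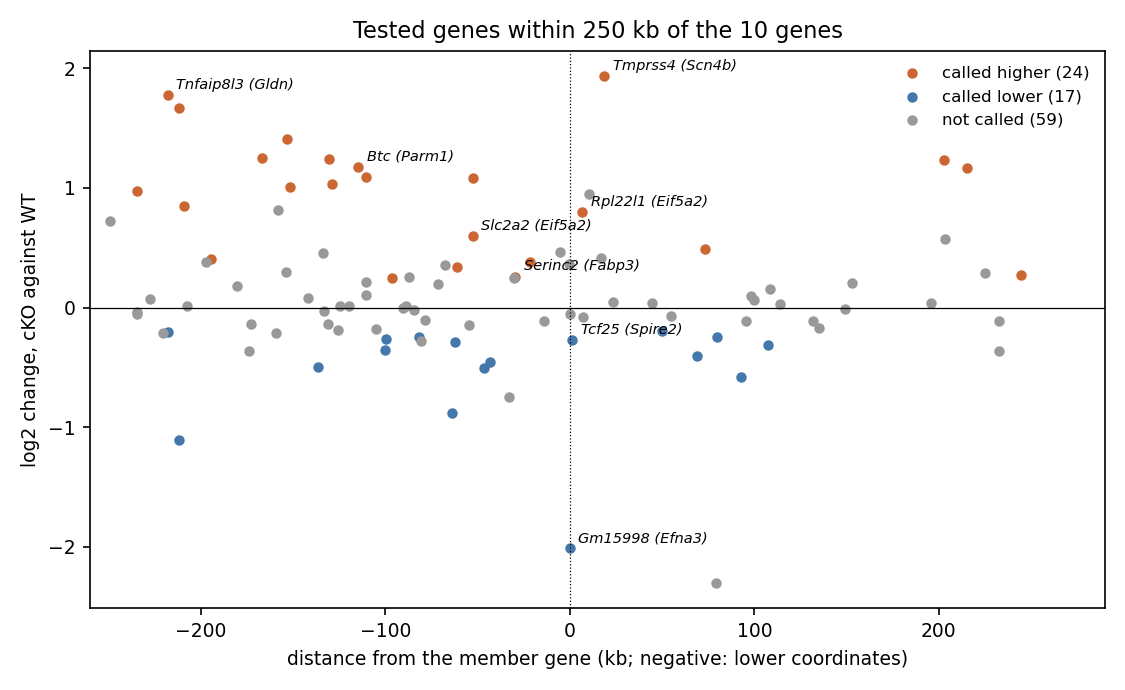
Log2 change of cKO against WT (vertical axis) for the 100 tested genes within 250 kb of the 10 genes, by distance in kb from the gene (horizontal axis, negative toward lower coordinates). Orange points were called higher (24), blue lower (17) and grey not called (59), and the labels name the called nearest neighbours with the gene they neighbour in brackets.

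The relatives and partners of the 10 genes were read in 9 lists of 161 genes. Of 158 found in the files, 92 were tested, of which 31 rose, 7 fell and 54 did not pass the test. That is 33.7% higher and 7.61% lower, beside 15.2% and 14.9% of all tested genes, which is also the background for the lists below. The median log2 change was 0.24 against -0.01 for all tested genes. Some relatives passed the filter on low counts only through the cKO libraries and could not have been called lower. How far this moves the shares was not tested. Of the rest, 29 had no count in any library. No overlap between groups was seen for 27 of the 31 that rose and 6 of the 7 that fell. Of all tested genes, 15% had every cKO library above and 15.6% every cKO library below every WT library.

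For the envelope genes, 7 of 27 relatives in the files were tested and 2 rose. *Ppl*, which encodes periplakin, the partner that envoplakin binds, went from 14.1 ± 1.7 to 30.2 ± 2.9 CPM (log2 change 1.09, adjusted p = 3.21e-05 by edgeR, 4 of 4 cKO libraries above every WT library). *Dsp*, the desmosomal plakin, went from 24.4 ± 3.3 to 31.0 ± 4.5 CPM (0.35, adjusted p = 0.0484, 3 of 4 above), a call lost when any 1 of 6 of the 8 libraries was left out (all but WT replicate 3 and cKO replicate 2). Of this list 12 genes had no count in any library, among them *Sprr1b*, the nearest relative of *Sprr1a*.

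For the ephrins and their receptors, 5 of 14 tested genes rose and none fell. Of the 5, *Ephb2* and *Efna2* had at most 5 counts in a WT library. *Epha3* had at most 11, and its lowest WT library was at 0.0204 CPM. None of these genes reached the filter's level in all 4 WT libraries. They passed the filter on low counts only through the cKO libraries, so they could not have been called lower. *Ephb2*, a receptor that was itself low in WT, went from 0.0661 ± 0.0371 to 0.628 ± 0.161 CPM (log2 change 3.17, adjusted p = 3.24e-04 by edgeR). *Epha3* went from 0.140 to 0.532 CPM (1.95, adjusted p = 0.00796), *Efna2* from 0.0723 to 0.249 CPM (1.74, adjusted p = 0.00693) and *Ephb6* from 0.327 to 0.907 CPM (1.47, adjusted p = 9.75e-04), each with 4 of 4 cKO libraries above every WT library. These 4 genes were all under 1 CPM in both groups, as was *Ephb3*, the other called gene (0.329 and 0.579 CPM). Its call was lost under 10 of 18 alternatives. Low genes also went uncalled by edgeR: *Efna4* (0.144 and 0.284 CPM, adjusted p = 0.186) and *Epha7* (0.784 and 1.03 CPM, adjusted p = 0.152). The more abundant receptors *Epha1* (33.6 and 34.2 CPM), *Epha2* (27.6 and 22.9 CPM) and *Ephb4* (32.2 and 33.5 CPM), chosen here after their values were seen, did not pass the test.

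For Wnt ligands, receptors and co-receptors, 9 of 20 tested genes rose and 3 fell. *Wls*, which carries Wnt proteins to the cell surface, went from 2.23 to 4.06 CPM (log2 change 0.86, adjusted p = 7.07e-04 by edgeR). *Porcn*, which acylates them, fell from 5.66 to 2.74 CPM (-1.05, adjusted p = 6.61e-04). *Adgra2*, a co-receptor for Wnt7 ligands, went from 3.32 to 5.39 CPM (0.70, adjusted p = 0.00171), and the Wnt co-receptor *Lrp5* from 27.8 to 37.9 CPM (0.45, adjusted p = 0.00187). For these 4 genes all 4 cKO libraries lay outside the WT range. *Wnt7a*, the nearest relative of *Wnt7b*, had at most 2 counts in any library and was not tested.

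For olfactomedin-domain proteins and gliomedin partners, 4 of 9 tested genes rose and 2 fell. *Olfml3* went from 2.91 ± 0.17 to 6.62 ± 0.48 CPM (log2 change 1.18, adjusted p = 3.84e-05 by edgeR), *Olfml1* from 4.84 to 9.07 CPM (0.91, adjusted p = 4.75e-04) and *Cntnap1*, which encodes the paranodal protein Caspr, from 2.70 to 9.51 CPM (1.81, adjusted p = 0.00129). *Bmp1*, a protease that cleaves gliomedin, fell from 172 to 120 CPM (-0.52, adjusted p = 8.68e-04). *Scn2b*, listed as a paralog of *Scn4b*, had at most 4 counts in a library and was not tested.

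For the fatty acid binding proteins, 1 of 5 tested genes rose and 1 fell. *Fabp1*, the abundant liver form, fell from 4662 ± 506 to 3247 ± 424 CPM (log2 change -0.52, adjusted p = 0.00528 by edgeR, 4 of 4 below), a call not made by limma on log2 TPM. *Fabp4*, the adipocyte and macrophage form, went from 7.92 to 14.2 CPM (0.84, adjusted p = 0.0155), a call lost with no filter on low counts. *Fabp5* was at 5.67 ± 2.45 and 10.8 ± 3.3 CPM (0.93, adjusted p = 0.0854) and did not pass the test. It did pass as higher by DESeq2, limma-voom and limma on log2 TPM.

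Among the partners of Spire proteins, 4 of 13 tested genes rose and none fell. They were *Myo5c*, a myosin V of secretory epithelium (0.323 ± 0.215 to 1.59 ± 0.31 CPM, log2 change 2.27, adjusted p = 0.00262 by edgeR), *Fmn1* (0.89, adjusted p = 0.00928), *Fmnl2* (0.64, adjusted p = 0.0112) and *Spire1*, the paralog of *Spire2* (0.329 to 0.696 CPM, 1.07, adjusted p = 0.0174), whose call was lost without WT replicate 2. *Myo5c*, with its lowest WT library at 0.0472 CPM, passed the filter on low counts only through cKO. *Fmn1* and *Spire1* were not called by limma on log2 TPM. Of the eIF5A, hypusine and polyamine genes, 3 of 14 rose and 1 fell. *Azin2* (0.988 to 3.23 CPM, 1.71, adjusted p = 1.83e-04) and *Azin1* (35.4 to 50.3 CPM, 0.50, adjusted p = 0.00859) encode antizyme inhibitors, and *Smox* (2.47 to 4.49 CPM, 0.86, adjusted p = 0.00120) encodes spermine oxidase. *Paox*, the polyamine oxidase gene, fell from 22.4 to 17.5 CPM (-0.35, adjusted p = 0.00988), also not called by limma on log2 TPM. *Eif5a*, the ubiquitous paralog, was at 313 and 340 CPM and did not pass the test (0.12, adjusted p = 0.228). Of the membrane mucins and sialomucins listed beside *Parm1*, 2 of 6 tested genes rose, *Cd34* (0.90, adjusted p = 0.00413) and *Cd164* (0.56, adjusted p = 0.00486).

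**Figure D5:**
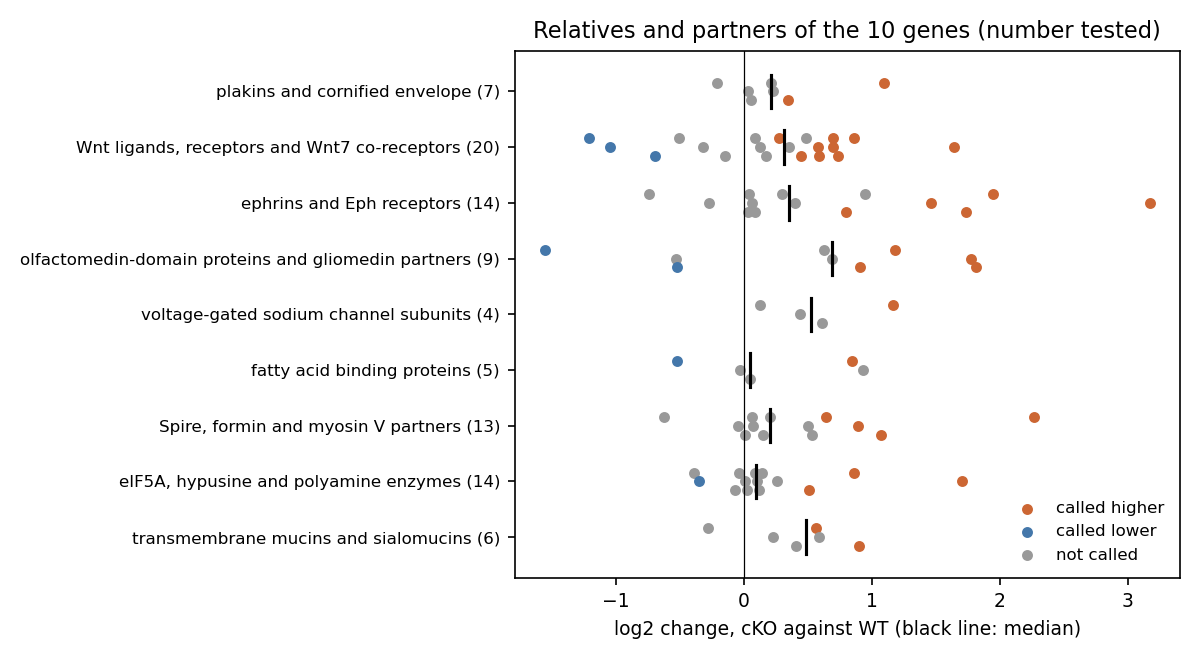
Log2 change of cKO against WT (horizontal axis) for the 92 tested relatives and partners of the 10 genes, 1 row per list with the number tested in brackets. Orange points were called higher, blue lower and grey not called, and black lines are list medians. *Ephb2* lies farthest to the right, at 3.17.

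Markers of cells that could carry these genes were read in the same libraries. Of the squamous epithelium markers, *Krt5* and *Dsg3* had no count in any library and *Krt14*, *Krt1* and *Trp63* stayed under 10 counts. With *Krt10*, the 6 markers summed to 1.66 to 1.96 CPM in WT and 1.36 to 1.96 CPM in cKO, beside *Evpl* and *Sprr1a*. Nearly all of that sum was *Krt10* (means of 1.86 and 1.58 CPM, adjusted p = 0.294 by edgeR), so it does not describe the other markers. The 6 Schwann cell markers summed to 3.57 to 3.71 CPM in WT and 4.25 to 4.79 CPM in cKO, without overlap, with none of 5 tested called and *Sox10* under 10 counts, beside the difference in *Gldn*. Striated muscle markers summed to 0.445 to 1.17 CPM in WT and 0.825 to 1.68 CPM in cKO, beside *Fabp3*. Nearly all of that sum was *Tnnt2* (means of 0.778 and 1.25 CPM, adjusted p = 0.137 by edgeR). *Myh6* was at 0 in all libraries, and *Myh7*, *Actn2*, *Ckm*, *Acta1* and *Mb* stayed under 10 counts.

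Markers of cells that reside in the liver moved with the 10 genes in part. Of the stellate cell and fibroblast markers 7 of 8 rose, and their summed level was 108 to 121 CPM in WT and 242 to 325 CPM in cKO. Of the 8 cholangiocyte markers *Krt7*, *Epcam* and *Cldn4* rose and *Spp1* fell, with sums of 34.7 to 43.6 and 28.5 to 36.9 CPM. Most of that sum was *Spp1* (means of 34.9 and 21.8 CPM), so it does not describe the other cholangiocyte markers. *Trem2* and *Gpnmb* of 7 macrophage markers rose (sums of 175 to 263 and 144 to 237 CPM), as did *Cd3e* and *Nkg7* of 6 lymphocyte markers (2.77 to 5.12 and 4.02 to 7.13 CPM) and *Wt1* of 5 mesothelial markers (1.53 to 3.23 and 0.938 to 5.62 CPM). None of 6 sinusoidal endothelial markers was called. Of 7 hepatocyte markers *Cps1* rose and *Apoa1*, *Ttr*, *Serpina1a* and *Hnf4a* fell. Of these marker calls, those of *Cd3e* and *Hnf4a* were each lost when any 1 of 7 libraries was left out (all but WT replicate 2 for *Cd3e* and WT replicate 1 for *Hnf4a*). The call of *Trem2* was lost for 6 libraries (all but WT replicate 4 and cKO replicate 3), and that of *Wt1* without WT replicate 3, cKO replicate 1 or cKO replicate 3. The calls of *Cps1* and *Apoa1* were lost without WT replicate 3 and cKO replicate 3, respectively, and *Apoa1*, *Serpina1a* and *Hnf4a* were not called by limma on log2 TPM. The part of these cell types in the levels of the 10 genes was not tested.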

How the data were processed

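RNA from whole liver was sequenced in 8 libraries, 4 WT and 4 cKO, grouped by the genotype in the labels. Per the labels' protocols, RNA was taken with Trizol from frozen liver and libraries were made with a TruSeq kit. The submitters' processing notes name STAR 2.5.1, RSEM and mm10. For the RSEM version, the annotation and the strand setting, nothing is given in the sources used here. The authors deposited RSEM expected counts, which divide shared reads between genes and need not be whole, and, per the file headers, effective lengths, TPM (scaled by length and to one total) and FPKM. FPKM was not used. The labels do not say that each library is a separate mouse, so that a p-value here reflects sample-to-sample spread, which may be technical. No 2 libraries of a group agreed within counting noise (chi-square per degree of freedom at least 28.4).

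The 10 genes and all gene lists were chosen with earlier results of these data known. Expected counts were rounded, filtered by edgeR's filterByExpr (minimum count 10, minimum total 15), scaled by TMM and fitted with edgeR 4.0.16 (robust quasi-likelihood, R 4.3.3). P-values were adjusted by the Benjamini-Hochberg method over all 15562 tested genes at 0.05. The fit was tested on simulated data. Ratios of summed counts have exact 95% binomial intervals. Neighbours came from RefSeq GRCm38.p6, which placed 14525 tested genes (93.3%). Named were the 10 genes, the nearest tested gene on each side, up to 4 called genes per list with the smallest p, 11 preset paralogs and the 5 genes of most similar profile without predicted symbols. Some results that the rule selects are not reported here. Alternatives were other scalings and filters, a replicate block, DESeq2 1.42.0, limma 3.58.1 (voom, and log2 of TPM plus 1 or 0.1), thinned counts and leaving out each library.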

Additional observations from a re-analysis of the deposited data

Results flagged for a closer look

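The WT level of *Sprr1a* was 0.0612 CPM in replicate 1 and 0 in the other 3 libraries, so that 1 library stood apart from its group. The WT level of *Gldn* was 0.0468 CPM in replicate 4 and 0 in the other 3. These come from 3 and 2 counts. Of 22 groups of 4 libraries examined in this way, these 2 were picked out. The rule is set to pick about 1 in 20 by chance. A group with reads in 1 library and 0 in the rest is always picked, so that rate does not apply to these 2.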

How the results depend on the processing

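Each of the 182 alternative values for the 10 genes was above 0. The choice of the genes by their difference in these same libraries set that sign, so it adds no support. Of the 182, 27 differed from the main value by more than its error. Most of them were on the log2(TPM + pseudocount) scale, which understates low genes (*Gldn* 1.01 with a pseudocount of 1). Only *Evpl* and *Gldn* reach 1 CPM in 4 libraries. Scaling by library size alone moved the median of all genes from -0.01 to 0.10 and gave 3604 genes higher and 1318 lower (73.2% of calls higher) in place of 2367 and 2322, with 9 neighbours lower. limma on log2(TPM + 1) gave 3848 higher and 875 lower (81.5%), 6 neighbours lower and 3 relatives lower; on log2(TPM + 0.1), where the median was 0.15, it gave 3847, 878 (81.4%), 6 and 4. The share of higher calls among the neighbours' calls therefore depends on the scaling. Leaving out 1 library gave 1739 to 2540 genes higher, 1624 to 2486 lower, 17 to 22 neighbours higher, 12 to 16 lower, 26 to 30 relatives higher and 6 to 9 lower. Deviations of same-numbered libraries from their group means correlated weakly (0.0417 to 0.0567). Those of differently numbered libraries ran from -0.1045 to 0.0921. These values cannot decide whether the numbers pair the libraries. With a replicate block, 2525 genes were higher and 2419 lower, with 26 and 16 neighbours and 31 and 8 relatives, and of the named genes *Gm15998*, *Dsp*, *Fabp4*, *Hnf4a* and *Trem2* lost their calls. In WT, 3 counts is the limit of what depth can show.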
